A study of Rattus norvegicus with 12 samples.

Results

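The 6 genes described here mark the brain's endothelium or act in its vascular endothelial growth factor (VEGF) pathway: Vegfa, Flt1, Kdr, Slc2a1, Cldn5 and Vwf. They were chosen by name, and were found by their Ensembl rat gene IDs among 28959 rows of the deposited expression table. Of the 6 rows, 5 held reads and were tested, and the row of Cldn5 was listed at 0 throughout.

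The libraries were made from hippocampal RNA of Sprague Dawley rats, a common outbred laboratory strain, stated to be 6 to 7 weeks old. CUMS-Alb, CUMS-Flx and CUMS-Sal rats were exposed to CUMS, chronic unpredictable mild stress, a schedule of changing mild stressors used to model depression, for 5 weeks. During the final 7 days CUMS-Alb rats were given albiflorin, a monoterpene glycoside of peony root, at 7 mg/kg/d. CUMS-Flx rats were given fluoxetine, an antidepressant that blocks serotonin reuptake, over the same 7 days, at 10 mg/kg/d by the sample labels and 7 mg/kg/d by the series text. CUMS-Sal rats were given saline in place of a drug, and Ctrl-Sal rats received saline without stress. Each group had 3 libraries. The labels do not tie a library to a separate animal, so p-values speak of library-to-library spread alone, part of which may be technical.

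VEGF-A, the product of Vegfa, is secreted by astrocytes and neurons in the brain and binds tyrosine kinase receptors on endothelial cells. The receptor encoded by Kdr carries most of the signal for endothelial growth and permeability, while the one encoded by Flt1 binds the ligand tightly and signals weakly, so that it also acts as a decoy. Brain endothelial cells form the blood-brain barrier through tight junctions, of which claudin-5, from Cldn5, is a main component. They take up glucose through GLUT1, from Slc2a1, and store von Willebrand factor, from Vwf, a clotting protein widely used as an endothelial marker.

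Levels are in FPKM, reads scaled to gene length and to the total of the library, so they can be compared between genes. The order Slc2a1, Vegfa, Flt1, Vwf, Kdr, from high to low, was the same in 12 of 12 libraries. Over the 12 libraries Slc2a1 ran from 40.3 to 56.6 FPKM with a median of 49.3, and its mean exceeded that of 92.5% of all rows with any reads. Vegfa ran from 21.6 to 35.5 FPKM (median 29.1) and Flt1 from 8.31 to 11.3 FPKM (median 9.53). Vwf ran from 3.13 to 4.88 FPKM (median 4.27) and Kdr from 1.59 to 3.26 FPKM (median 2.23). The ranges of Slc2a1, Vegfa, Flt1 and Vwf did not overlap, while those of Vwf and Kdr overlapped, with Vwf above Kdr within every library. The mRNA of the glucose transporter thus stood far above that of the secreted marker Vwf and of either receptor. These are levels of bulk tissue, and the cells that held each mRNA were not identified.

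The reads behind these levels were recovered from the deposited values. Slc2a1 had 1205 to 1862 reads per library, Vegfa 976 to 1575, Flt1 928 to 1328 and Vwf 444 to 742. Kdr rested on the fewest, 116 to 260. The library totals that scale the values, also recovered, were 14735953 to 18109623 reads.

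**Figure D1:**
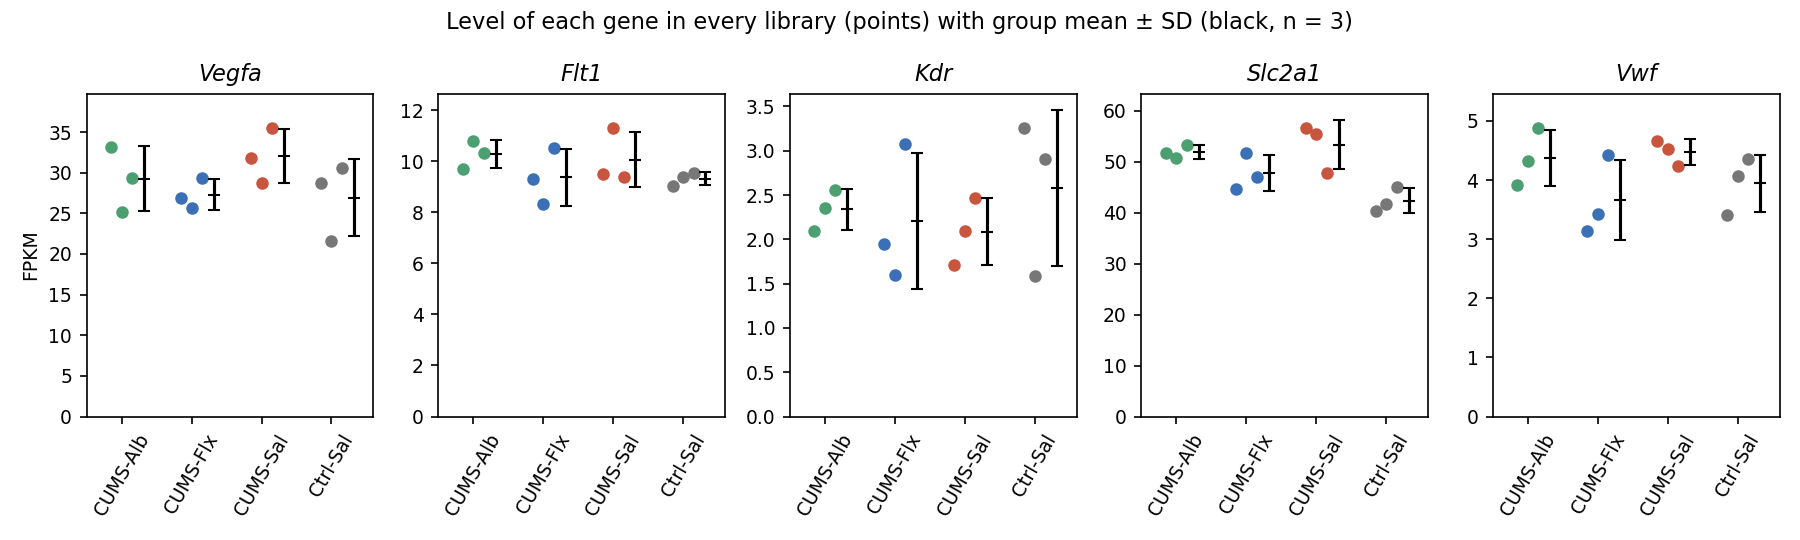
FPKM (y axis, from 0) of the 5 genes with reads, 1 panel per gene, in the CUMS-Alb, CUMS-Flx, CUMS-Sal and Ctrl-Sal groups. Points are libraries in the order of their replicate numbers and black bars are the mean ± SD of 3 libraries; the 3 Ctrl-Sal libraries of Slc2a1 lie at 40.3 to 45.1 FPKM, below every CUMS-Sal and CUMS-Alb library, and the points of Kdr are the most scattered.

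Some facts of the whole series touch the results below. Ctrl-Sal replicate 2 stood apart, with a median correlation of 0.977 with the other libraries, against 0.989 to 0.992 for the rest. The 9 rows that each took over 1% of the reads together held 15.1% ± 0.485 of the reads in CUMS-Alb, 16.5% ± 1.99 in CUMS-Flx, 14.9% ± 0.157 in CUMS-Sal and 20% ± 2.32 in Ctrl-Sal (SD, n = 3). The median log2 change of all 15253 tested rows was 0.10 in CUMS-Sal over Ctrl-Sal and 0.09 in CUMS-Alb over Ctrl-Sal. Neither the deposited table nor the reference used here pairs Ensembl IDs with symbols (0 rows matched), so markers of other cell types, the hippocampal origin of the tissue and the other genes of the pathway could not be checked.

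The ligand gene Vegfa (ENSRNOG00000019598) passed no test between groups. Its levels were 33.2, 25.2 and 29.4 FPKM in CUMS-Alb replicates 1 to 3 and 26.9, 25.7 and 29.3 FPKM in CUMS-Flx. They were 31.8, 28.8 and 35.5 FPKM in CUMS-Sal and 28.7, 21.6 and 30.5 FPKM in Ctrl-Sal. The lowest value of all was that of Ctrl-Sal replicate 2 and the highest that of CUMS-Sal replicate 3, and all 4 groups overlapped. In CUMS-Sal Vegfa averaged 32 ± 3.36 FPKM, against 26.9 ± 4.7 FPKM in Ctrl-Sal (SD, n = 3 each). The log2 change was 0.26 (SE 0.13, 95% interval -0.03 to 0.54), with a limma adjusted p of 0.21. With 1 library left out the log2 change ran from 0.11, without Ctrl-Sal replicate 2, to 0.35, without Ctrl-Sal replicate 3. With median deviations set to 0 it was 0.15. Under fluoxetine Vegfa averaged 27.3 ± 1.86 FPKM, a log2 change of -0.22 from CUMS-Sal (95% interval -0.51 to 0.06, adjusted p = 0.587 by limma). Under albiflorin it averaged 29.3 ± 3.99 FPKM, a log2 change of -0.13 from CUMS-Sal (95% interval -0.42 to 0.15, adjusted p = 1 after rounding, by limma).

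The receptor gene Flt1 (ENSRNOG00000000940) passed no test. It stood at 9.71, 10.8 and 10.3 FPKM in CUMS-Alb and at 9.29, 8.31 and 10.5 FPKM in CUMS-Flx. The CUMS-Sal libraries had 9.51, 11.3 and 9.41 FPKM, and the Ctrl-Sal libraries 9.04, 9.38 and 9.55 FPKM. All 3 CUMS-Alb libraries lay above all 3 Ctrl-Sal libraries, by a margin of under 0.2 FPKM, as did 24.6% of all rows, while the other pairs of groups overlapped. In CUMS-Alb the mean was 10.3 ± 0.548 FPKM, against 9.32 ± 0.26 FPKM in Ctrl-Sal (SD, n = 3 each; log2 change 0.13, SE 0.10, limma adjusted p = 0.392). The log2 change in CUMS-Sal over Ctrl-Sal was 0.10 (95% interval -0.11 to 0.31), which equals the median of all rows and came to -0.0014 once each library's median deviation was set to 0. The log2 change of Flt1 was -0.10 in CUMS-Flx over CUMS-Sal (95% interval -0.31 to 0.11) and 0.03 in CUMS-Alb over CUMS-Sal (95% interval -0.18 to 0.24). Over the 6 comparisons its log2 changes ran from -0.10 to 0.13.

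The receptor gene Kdr (ENSRNOG00000046829) varied most between replicates and passed no test. It stood at 2.1, 2.35 and 2.56 FPKM in CUMS-Alb and at 1.94, 1.6 and 3.07 FPKM in CUMS-Flx. The CUMS-Sal libraries had 1.71, 2.09 and 2.46 FPKM, and the Ctrl-Sal libraries 3.26, 1.59 and 2.91 FPKM. The highest and the lowest library of all 12 were both Ctrl-Sal libraries, and the 4 groups overlapped. In CUMS-Sal Kdr averaged 2.09 ± 0.377 FPKM, against 2.58 ± 0.88 FPKM in Ctrl-Sal (SD, n = 3 each; log2 change -0.22, SE 0.23, limma adjusted p = 0.555). Its 95% interval, -0.72 to 0.28, spans falls and rises, and the log2 change was -0.48 when Ctrl-Sal replicate 2 was left out, -0.05 when replicate 1 was, and -0.12 when replicate 3 was. Against CUMS-Sal the log2 change of Kdr was 0.04 under fluoxetine (95% interval -0.46 to 0.54) and 0.14 under albiflorin (95% interval -0.36 to 0.64). Both intervals hold falls as well as rises.

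The balance of the receptors can be read within each library, where depth cancels. The FPKM of Kdr over that of Flt1 was 0.216, 0.218 and 0.248 in CUMS-Alb and 0.209, 0.193 and 0.292 in CUMS-Flx. In the CUMS-Sal libraries it was 0.18, 0.185 and 0.262, and in those of Ctrl-Sal 0.36, 0.169 and 0.305. Flt1 mRNA was thus the more abundant of the receptors in every library. The Ctrl-Sal libraries held both the highest and the lowest ratio, so no group stood apart. The FPKM of Vegfa over that of Flt1 ran from 2.31 to 3.77 over the 12 libraries and also overlapped between all groups.

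Slc2a1 (ENSRNOG00000007284), the glucose transporter gene, was higher in CUMS-Sal than in Ctrl-Sal and was the 1 member of 5 that passed a test, in a comparison where 9.19% of all rows were called. It stood at 51.8, 50.7 and 53.3 FPKM in CUMS-Alb and at 44.7, 51.8 and 46.9 FPKM in CUMS-Flx. It stood at 56.6, 55.5 and 47.8 FPKM in CUMS-Sal and at 40.3, 41.7 and 45.1 FPKM in Ctrl-Sal. Every CUMS-Sal and CUMS-Alb library lay above every Ctrl-Sal library, and CUMS-Flx replicate 1 fell among the Ctrl-Sal values. The mean was 53.3 ± 4.81 FPKM in CUMS-Sal and 42.4 ± 2.42 FPKM in Ctrl-Sal (SD, n = 3 each). This was a 1.25-fold rise (95% interval 1.11 to 1.41, log2 change 0.33, SE 0.08), with an adjusted p of 0.0337 by limma over all 15253 rows. Bulk tissue cannot tell a changed mix of cells apart from changed Slc2a1 mRNA per cell, here or in any later comparison.

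This call lay near the threshold and depended on the processing. It was made in 9 of 23 alternative settings. With each library's median deviation set to 0 the log2 change was 0.22 (adjusted p = 0.0913 by limma). Rescaling outside the 9 abundant rows gave 0.24 (adjusted p = 0.0701 by limma). Leaving out any of the 3 CUMS-Sal libraries also ended the call. Without replicate 1, 2 or 3 in turn the adjusted p was 0.0798, 0.113 and 0.0566 by limma. The unadjusted p by limma was 0.0072, 0.00659 and 0.000233 in these fits, against 0.00118 as reported. The log2 change was 0.28, 0.29 and 0.40, so it was largest without replicate 3, where 24 of all rows were called, against 1402. Leaving out the doubted Ctrl-Sal replicate 2 (log2 change 0.32, adjusted p = 0.0703) or Ctrl-Sal replicate 1 (0.29, adjusted p = 0.059) ended the call too. Without CUMS-Alb replicate 1 or 2, which enter through the shared estimate of spread, the adjusted p was 0.0501 and 0.0502, and with only CUMS-Sal and Ctrl-Sal in the fit it was 0.129. The direction was the same in all 23 settings, where the log2 change ran from 0.22 to 0.40.

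**Figure D2:**
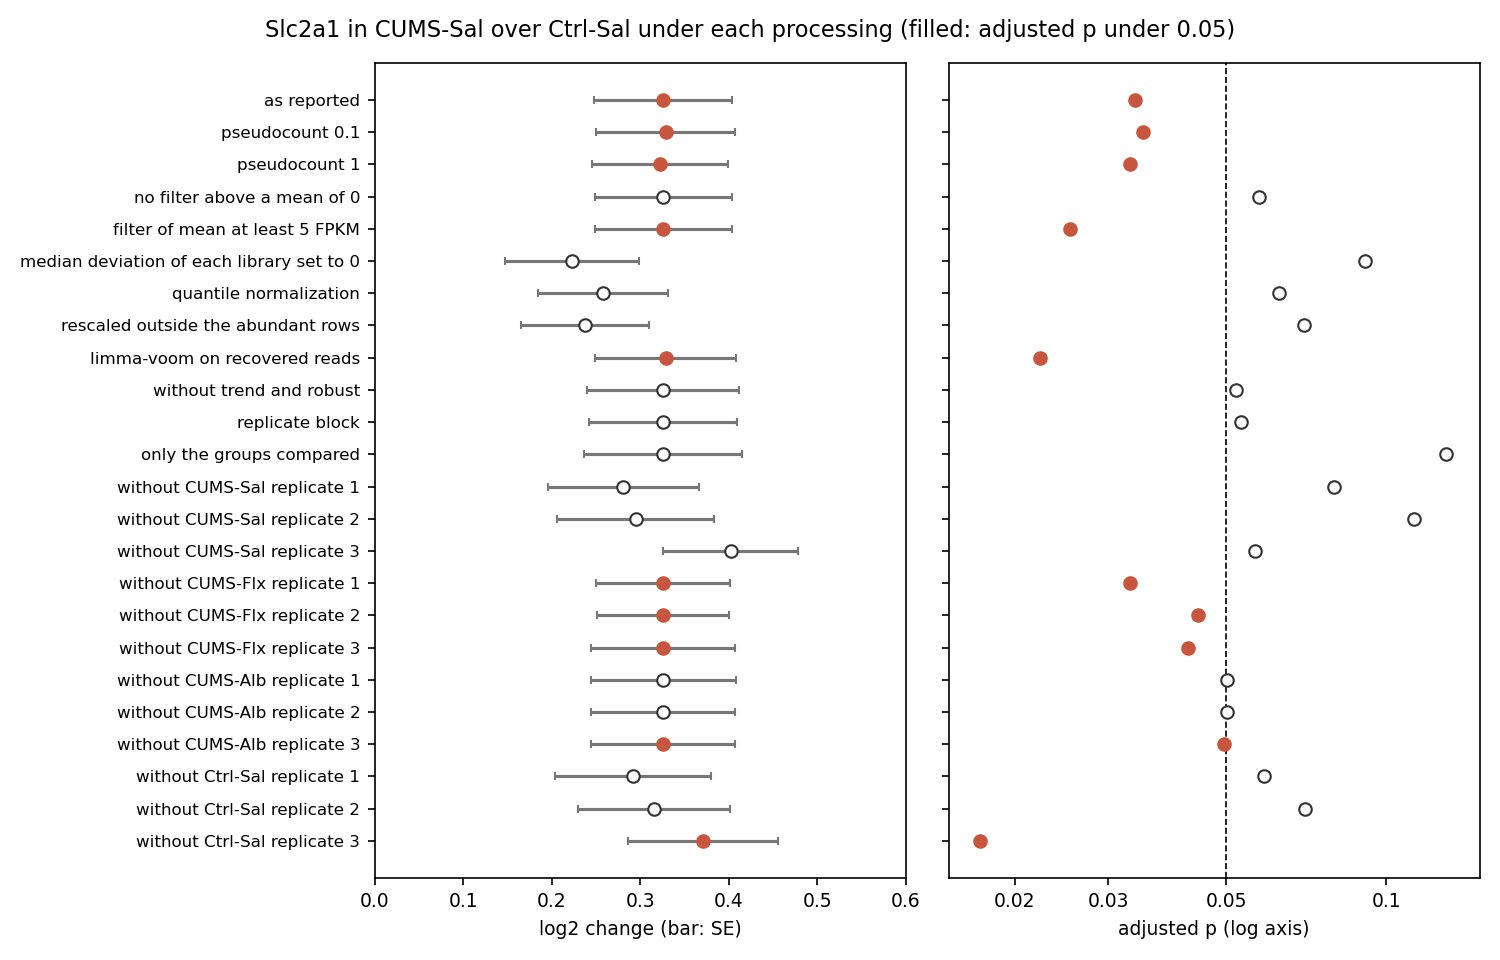
Slc2a1 in CUMS-Sal over Ctrl-Sal under the reported processing and 23 alternatives (1 per line). The left panel gives the log2 change with its SE and the right panel the adjusted p on a log axis with a dashed line at 0.05; filled points are called, the log2 change stays between 0.22 and 0.40, and the adjusted p lies on both sides of the line, from 0.0172 to 0.129.

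The mean of Slc2a1 in both drug groups lay between those of CUMS-Sal and Ctrl-Sal. CUMS-Alb averaged 51.9 ± 1.3 FPKM, against 42.4 ± 2.42 FPKM in Ctrl-Sal (SD, n = 3 each; log2 change 0.29, SE 0.08, limma adjusted p = 0.0533). It was called under 3 of 23 alternatives, at adjusted p of 0.0391 by limma-voom on recovered reads, 0.0399 with a minimum mean of 5 FPKM and 0.0252 without Ctrl-Sal replicate 3. In the same order these alternatives called 1220 of 15678, 996 of 9272 and 2356 of 15253 rows, against 381 of 15253 as reported. CUMS-Flx averaged 47.8 ± 3.62 FPKM, a log2 change of 0.17 over Ctrl-Sal (95% interval 0.0026 to 0.34, adjusted p = 0.279 by limma). Neither difference from CUMS-Sal passed the test. The log2 change was -0.15 for fluoxetine (95% interval -0.32 to 0.01, adjusted p = 0.529 by limma) and -0.03 for albiflorin (95% interval -0.20 to 0.14, adjusted p = 1 after rounding). CUMS-Alb exceeded CUMS-Flx by 0.12 on the log2 scale (95% interval -0.05 to 0.29, adjusted p = 0.955 by limma). The CUMS-Sal and Ctrl-Sal libraries are shared among these comparisons, so they are not separate evidence.

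Vwf (ENSRNOG00000019689), the gene of the secreted clotting factor, had its lowest group mean under fluoxetine, without passing the test. It stood at 3.92, 4.32 and 4.88 FPKM in CUMS-Alb and at 3.13, 3.43 and 4.42 FPKM in CUMS-Flx. The CUMS-Sal libraries had 4.67, 4.52 and 4.23 FPKM, and the Ctrl-Sal libraries 3.41, 4.06 and 4.35 FPKM. CUMS-Flx replicates 1 and 2 were low, and replicate 3 lay within the CUMS-Sal range, so the groups overlapped. CUMS-Flx averaged 3.66 ± 0.677 FPKM, against 4.47 ± 0.221 FPKM in CUMS-Sal (SD, n = 3 each). The log2 change was -0.27 (SE 0.13, 95% interval -0.55 to 0.01, adjusted p = 0.511 by limma). It ran from -0.40 without CUMS-Flx replicate 3 to -0.18 without CUMS-Flx replicate 1. CUMS-Alb exceeded CUMS-Flx by 0.24 on the log2 scale (95% interval -0.04 to 0.51, adjusted p = 0.955 by limma). In CUMS-Sal over Ctrl-Sal the log2 change was 0.17 (95% interval -0.11 to 0.45, adjusted p = 0.408 by limma), and 0.01 after quantile normalization.

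Cldn5, the tight junction gene, could not be described. Its row, ENSRNOG00000045811, was listed at 0 FPKM in 12 of 12 libraries, as were 22.8% of the 27068 rows with Ensembl IDs. A count of 0 allows up to 3 reads per library, or 0.166 to 0.204 RPM (reads scaled to the library total), for counting error only. The same libraries held 928 or more reads of the endothelial receptor gene Flt1 each. The cause of the listed 0 was not tested, and nothing is read from it about the junction.

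**Figure D3:**
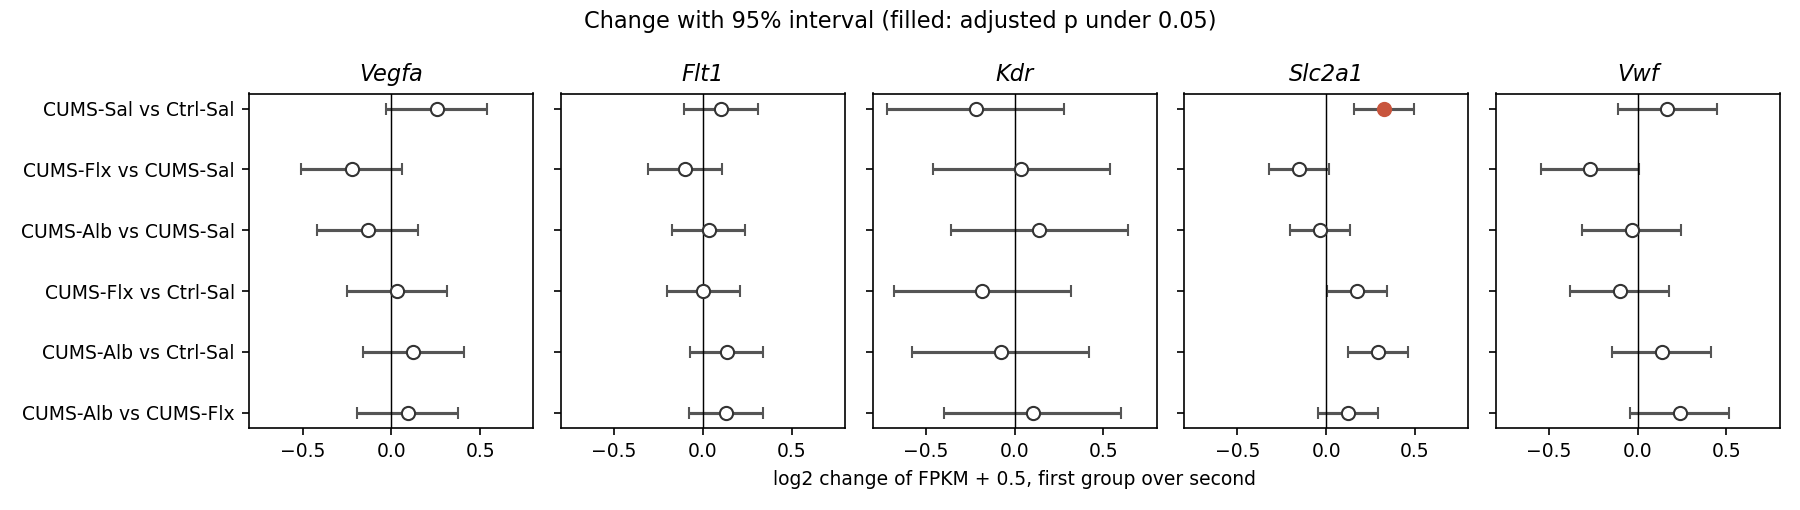
Log2 change of FPKM + 0.5 (x axis) with its 95% interval for the 5 tested genes (panels) in the 6 comparisons (lines, first group over second). The filled point, Slc2a1 in CUMS-Sal over Ctrl-Sal at 0.33, is the 1 change with an adjusted p under 0.05, and the intervals of Kdr are the widest.

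Read against all rows, the members gave 1 call over the 6 comparisons. In CUMS-Sal over Ctrl-Sal 1 of 5 tested members was called, and it was higher, while 9.19% of all 15253 rows were called in either direction and 8.05% were higher. With 5 members, 1 call is near that background. The background itself was unsteady: of the 1402 rows called, 1228 were higher and 174 lower, against 364 and 379 with median deviations set to 0, 297 and 232 after quantile normalization and 434 and 277 after rescaling outside the abundant rows. The count was 327, 1 and 24 without CUMS-Sal replicates 1, 2 and 3, 369 when Ctrl-Sal replicate 2 was left out, 2637 when its replicate 3 was, and 0 in a fit of these groups alone. There was no overlap between these groups for 1 of 5 members, which was higher, against 31.1% of all rows, or 25.3% counted as higher alone. An unadjusted p under 0.05 was found for 1 of 5 members and 30% of all rows. The median log2 change of the 5 members was 0.17, beside 0.10 for all rows.

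In CUMS-Flx and in CUMS-Alb against stressed rats on saline, limma called 0 of 5 members. For fluoxetine 0% of all rows were called, 9.98% had an unadjusted p under 0.05 and 0 of 5 members did. The groups did not overlap for 0 of 5 members and 17.9% of all rows. For albiflorin 0% of all rows were called, 3.66% had an unadjusted p under 0.05 and again 0 of 5 members did. Here the groups did not overlap for 0 of 5 members and 11.3% of all rows. Limma-voom on recovered reads called 0 members for either drug, and 0 of all 15678 rows it tested. The median log2 change of the members was -0.15 for fluoxetine, beside -0.05 for all rows, and -0.03 for albiflorin, beside -0.01.

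Against Ctrl-Sal, limma called 0 of 5 members in CUMS-Alb, where 2.5% of all rows were called, a count of 381 that became 6 without Ctrl-Sal replicate 2 and 2356 without Ctrl-Sal replicate 3. There 1 member, Slc2a1, had an unadjusted p under 0.05, as did 27.4% of all rows. For 2 members, Slc2a1 and Flt1, the groups did not overlap, against 31% of all rows. In CUMS-Flx it called 0 of 5 members, where 0.0524% of all rows were called (8 rows, and 544 without Ctrl-Sal replicate 3), and 1 member, again Slc2a1, had an unadjusted p under 0.05, as did 17.5% of all rows. There 0 members and 17.7% of all rows did not overlap. In CUMS-Alb over CUMS-Flx it called 0 of 5, where 0.00656% of all rows were called and 0 members had an unadjusted p under 0.05, against 4.98% of all rows. Between the drug groups 0 members and 13.7% of all rows did not overlap. Over the 4 groups together, limma's F-test called 0 of 5 members, with 0.0459% of all rows called, a count of 7 that became 778 without Ctrl-Sal replicate 3 and 387 by limma-voom. Its smallest adjusted p among the members was 0.0973, for Slc2a1, and the others lay at 0.411 to 0.867.

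Kdr and Vegfa scattered more between replicates than most rows of like level. Between replicates, the SD of log2(FPKM + 0.5) was 0.32 for Kdr, 0.19 for Vegfa, 0.16 for Vwf, 0.12 for Flt1 and 0.10 for Slc2a1. Counting of reads alone gives 0.09 for Kdr and 0.04 to 0.05 for the other 4 genes, a floor that separate libraries are bound to exceed. Vegfa spread more than 90% of 1012 rows of like level (within 0.25 log2 units of its mean) and Kdr more than 87.7% of 916 such rows. Flt1, Slc2a1 and Vwf lay near the middle, above 43.8%, 52.9% and 51.2% of theirs.

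**Figure D4:**
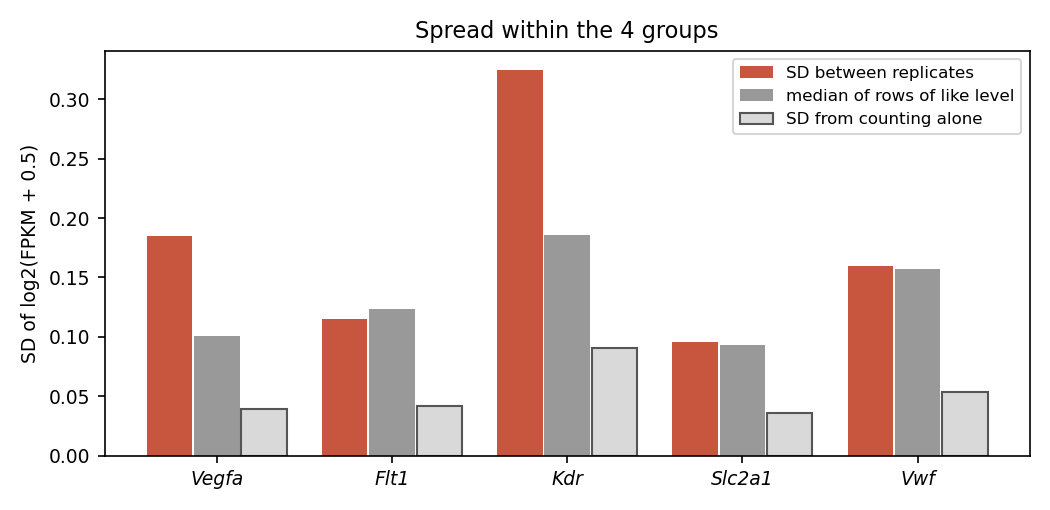
SD of log2(FPKM + 0.5) between replicates, pooled over the 4 groups (left bar of each set), the median SD of rows of like level (middle bar) and the SD that counting alone gives (right bar). The bar of Kdr reaches 0.32 and that of Slc2a1 0.10, and the replicate bars of Kdr and Vegfa stand above those of rows of like level.

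None of the pairs of members passed adjustment for correlation from library to library. Of 10 pairs of genes compared over the 12 libraries, Flt1 and Vwf had the highest correlation of log2(FPKM + 0.5), with Pearson's r = 0.67 (two-sided permutation p = 0.0176, 0.176 after Benjamini-Hochberg adjustment over the 10 pairs) and Spearman's rho = 0.71 (permutation p = 0.0118, adjusted 0.118). Without the 2 libraries farthest from the median of Flt1, r was 0.59, and after subtraction of group means it was 0.56. Kdr and Flt1, the receptors, gave r = 0.29 and rho = 0.27 (permutation p = 0.356 and 0.391), with r = 0.41 after subtraction of group means and 0.61 over the stressed libraries alone. Vegfa gave r = 0.08 with Flt1 and 0.39 with Kdr, and 0.14 with Kdr without the 2 libraries farthest from the median of Vegfa. After subtraction of group means Vegfa and Kdr gave r = 0.64, the highest of the 10 pairs on that measure. Over the stressed libraries alone, without that subtraction, the same pair gave r = 0.20. In Ctrl-Sal replicate 2, the library that stood apart, Vegfa and Kdr both lay at -0.40 from their means over the 12 libraries. The r of 0.64 was not recomputed without that library. The other pairs ran from -0.34, for Kdr and Slc2a1, to 0.53, for Slc2a1 and Vwf. All values are scaled to the total of their library.

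**Figure D5:**
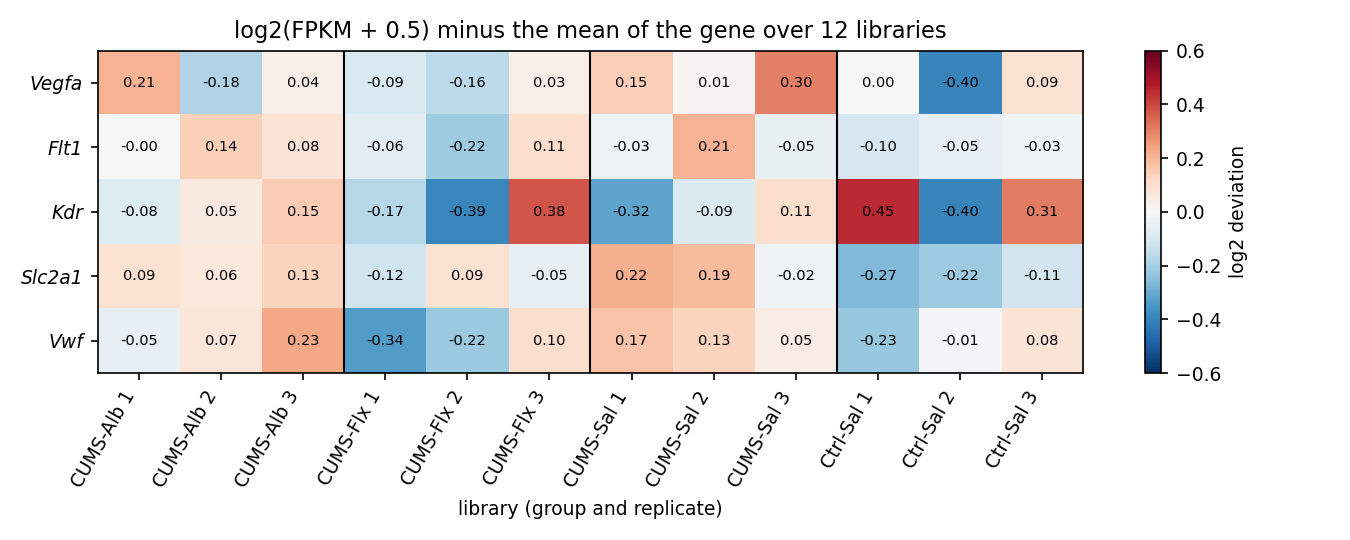
Deviation of log2(FPKM + 0.5) from each gene's mean over the 12 libraries (colour and printed value), genes in rows and libraries in columns by group. Slc2a1 is below its mean in all 3 Ctrl-Sal libraries, at -0.27 to -0.11, and above it in all 3 CUMS-Alb libraries, at 0.06 to 0.13, while Kdr runs from -0.40 to 0.45 within Ctrl-Sal alone.

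Of 9271 other rows that averaged 5 FPKM or more, 23 correlated with Slc2a1 at r over 0.9 across the 12 libraries, 4 with Vegfa and 1 with Flt1. Of the 9272 such rows set against Kdr and Vwf, which average under 5 FPKM themselves, 0 did, and the highest r was 0.82 for Kdr and 0.87 for Vwf. The rows most like Slc2a1 were ENSRNOG00000011407 (r = 0.96) and ENSRNOG00000004538 (r = 0.95), which carry no symbol in the table. These are the top of many correlations and are given as a description.

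The stretch before a gene's start is shown for Slc2a1, the member that was called, and for Vegfa, the ligand at the head of the pathway. Both are textbook targets of hypoxia-inducible factor. The sequences are RefSeq's, build GRCr8, the 250 bases before the start on the + strand, at chr5:138002272-138002521 for Slc2a1 and chr9:22452604-22452853 for the first of the Vegfa starts listed there. Capitals mark ACGTG, the core of the factor's motif, and GGGCGG, the GC box, on either strand.
Slc2a1: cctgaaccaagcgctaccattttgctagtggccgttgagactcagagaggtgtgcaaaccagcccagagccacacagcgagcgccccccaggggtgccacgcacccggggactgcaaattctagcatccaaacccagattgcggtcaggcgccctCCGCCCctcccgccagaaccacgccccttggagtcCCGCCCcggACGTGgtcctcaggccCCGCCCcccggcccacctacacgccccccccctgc
Vegfa: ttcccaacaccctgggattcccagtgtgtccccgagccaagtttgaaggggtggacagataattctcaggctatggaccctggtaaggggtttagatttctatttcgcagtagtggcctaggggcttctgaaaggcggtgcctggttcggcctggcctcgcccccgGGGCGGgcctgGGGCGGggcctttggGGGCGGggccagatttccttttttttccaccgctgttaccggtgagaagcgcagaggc
The Slc2a1 stretch held 1 ACGTG and 3 GC boxes and was 68.4% G and C. That of Vegfa held 0 ACGTG and 3 GC boxes, at 60.4%, while the stretch before the other listed Vegfa start, at chr9:22460028-22460277, held 0 of either, at 56%. Those of Flt1, Kdr and Cldn5 held 0 ACGTG and 3, 1 and 1 GC boxes. No stretch was matched for Vwf, so 5 of the 6 members were scanned. Among 33469 such stretches of rat genes 16.6% held ACGTG and 30.5% the GC box on either strand, and the median G and C share was 51.2%. A match is a description of letters and not a site of binding, and no match speaks only of this window.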

How the data were processed

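Hippocampal RNA of 12 libraries in 4 groups of 3, assigned by their titles, was analysed. The submitters' processing notes name TopHat2 and, as the build, rn6, with neither counter nor annotation given in the sources used here. As deposited by the authors, the table holds FPKM in 12 columns, with no unit named in the header. The unit was read from the values. For all 22737 rows above 0, a whole length with whole reads (within 0.0001) gave them. The shortest length that fitted was taken, and longer ones were not excluded. The recovered reads summed to 99.99% of each total. These totals, by which the values are scaled, were 14735953 to 18109623 reads. The number of reads sequenced was not recovered.

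Limma 3.58.1 in R 4.3.3, with trend and robust settings, fitted log2(FPKM + 0.5) of the 15253 rows averaging 0.5 FPKM or more, over all 12 libraries with 1 coefficient per group. Fold changes are on that scale, which understates low genes. Calls needed a Benjamini-Hochberg p, adjusted over all rows, under 0.05; each gene's adjusted p comes from that limma fit unless an alternative is named. The fit and the recovery were also run on simulated data. These were made with neither an outlying library nor a group shift of the abundant rows, so they do not show how reliable the calls are. Permutation tests used 100000 resamples. Python 3.11.15, numpy 2.4.6, pandas 2.3.3, scipy 1.17.1 and matplotlib 3.10.9 were used otherwise.

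The members and lists were chosen with earlier results of these data known. The 114 symbols of 14 lists of vascular, hypoxia and cell type genes matched 0 rows and gave no result. By the rule for named genes all 6 members are named; likeness was to be given for genes with a symbol, and IDs are given instead. The design was that of an FPKM table. Alternatives were pseudocounts of 0.1 and 1, no filter and a minimum mean of 5 FPKM, median deviations set to 0, quantile normalization, limma-voom on recovered reads averaging 10 or more, limma without trend and robust settings, a fit of the compared groups alone, a block for the replicate number and leaving out each library. Rescaling outside the 9 abundant rows was chosen after seeing the data.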

Additional observations from a re-analysis of the deposited data

How the results depend on the processing

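The count of members called in CUMS-Sal over Ctrl-Sal was 1 as reported. It was 0 with no filter, with median deviations set to 0, after quantile normalization, after rescaling outside the abundant rows, without trend and robust settings, with the replicate block and with only the groups compared, and 0 to 1 with a library left out. In CUMS-Alb over Ctrl-Sal it was 0, and 1 with a minimum mean of 5 FPKM and by limma-voom, and 0 to 1 with a library left out. Every change in the count of members is that of Slc2a1. With no filter more rows are tested, and the cause was not tested for the other settings. In the other comparisons the count of members was 0 in all settings run. It was also 0 by the F-test over the 4 groups, which was not run with only the groups compared. The 5 FPKM minimum leaves out Kdr and Vwf.

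With the replicate block the adjusted p of Slc2a1 in CUMS-Sal over Ctrl-Sal was 0.0533 by limma, at the same log2 change of 0.33. The labels do not say what libraries of the same replicate number share. Over 18 same-numbered pairs, deviations of all tested rows from group means correlated at -0.16 to 0.13, with 1 pair over 0.1. For Vegfa, however, replicate 2 was the lowest library of every group. With the block its log2 change in CUMS-Sal over Ctrl-Sal stayed at 0.26. The SE was 0.09, against 0.13 as reported, and the adjusted p 0.0864 by limma. The block left 565 rows called in CUMS-Sal over Ctrl-Sal, against 1402.

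Changes near 0 turned sign. With median deviations set to 0, Flt1 came to -0.0014 in CUMS-Sal over Ctrl-Sal, and in CUMS-Flx over Ctrl-Sal Vegfa came to -0.019 and Flt1 to -0.048. After quantile normalization these were -0.046, -0.027 and -0.073, and Vwf in CUMS-Alb over Ctrl-Sal came to -0.0093. After rescaling outside the abundant rows, Vegfa and Flt1 in CUMS-Flx over Ctrl-Sal came to -0.028 and -0.055. The cause was not tested. With 1 library left out, Kdr ran from -0.18 to 0.20 in CUMS-Flx over CUMS-Sal, Flt1 ran from -0.013 to 0.11 in CUMS-Alb over CUMS-Sal, Slc2a1 ran from -0.11 to 0.011 in CUMS-Alb over CUMS-Sal, Vwf ran from -0.11 to 0.035 in CUMS-Alb over CUMS-Sal, and Vegfa ran from -0.12 to 0.13 in CUMS-Flx over Ctrl-Sal. In the same way, Flt1 ran from -0.080 to 0.081 in CUMS-Flx over Ctrl-Sal, Vegfa ran from -0.025 to 0.22 in CUMS-Alb over Ctrl-Sal, Kdr ran from -0.34 to 0.086 in CUMS-Alb over Ctrl-Sal, Vegfa ran from -0.0025 to 0.19 in CUMS-Alb over CUMS-Flx, and Kdr ran from -0.062 to 0.32 in CUMS-Alb over CUMS-Flx.

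The count of all rows called in CUMS-Sal over Ctrl-Sal, 1402, ran from 0 to 2637 over the alternatives. In CUMS-Alb over Ctrl-Sal it was 381, and 0 to 2356 over the alternatives, and in CUMS-Flx over Ctrl-Sal 8, and 0 to 544. By the F-test it was 7, and 0 to 778. Of the 28 member changes other than those of Slc2a1 over Ctrl-Sal in CUMS-Sal and CUMS-Alb, 0 were called in any of the 23 settings. Their lowest adjusted p was 0.0864 by limma, for Vegfa in CUMS-Sal over Ctrl-Sal with the replicate block. Of the tested members Kdr rested on the fewest reads, 116 to 260. Its SD between replicates, 0.32, was above the 0.09 that counting alone gives.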
